A study of Mus musculus with 13 samples.

Results

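Cytochrome c oxidase, complex IV of the mitochondrial respiratory chain, passes electrons to oxygen, and several of its nuclear subunits come in a common form and a form restricted to some tissues. Here 4 such pairs were followed through heart development: Cox4i1 and Cox4i2, Cox6a1 and Cox6a2, Cox7a2 and Cox7a1, and Cox8a and Cox8b. These 8 genes were found by symbol among the 27998 genes of the deposited matrices, and all 8 were detected. The samples were single-cell suspensions of Wild-type C57Bl/6J mice: embryos of E8.5 or E10.5 without head and limbs, and dissected hearts of 3 later embryonic stages (E12.5, E14.5, E16.5) or of postnatal day 3 (P3). The 4 stages from E10.5 to E16.5 had 2 libraries each, listed as separate samples, and E16.5 replicate 1 is listed as 2 samples that share 1 matrix. Whether they came from separate animals or suspensions is not given in the sources used here, so p-values measure the spread between these libraries, which may be technical. E8.5 was represented by replicate 2, and its other replicate was not analysed here. Both P3 libraries lay in 1 matrix. Its barcode suffixes part 2 wells that no label matches to the listed samples, and the matrix was treated here as 1 sample. E8.5 and P3 are therefore given as values without a test. The number of animals in a sample is not given either. The labels name trypsin digestion and 3′ v2 chemistry, whereas the study's methods name collagenase II and v3 chemistry.

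A barcode was kept with at least 2000 UMIs (unique molecular identifiers, 1 for each captured RNA molecule) and at least 1% of them from mitochondrial genes. Of 80741 barcodes with at least 2000 UMIs, 67411 were kept. A kept barcode was a cardiomyocyte where Tnnt2, which encodes cardiac troponin T, reached 1500 CPM (UMIs scaled to a total of 1000000) in hearts or 500 CPM in embryos. That gave 24047 cardiomyocytes and 43364 other cells, and 1183 barcodes lay within 25% of the cut. Levels are CPM of all UMIs summed over the cells of a library and class. Fold changes come from the test, which rescales the sums (TMM), so they can differ from ratios of CPM. Since 1 molecule gives 1 UMI near its 3′ end, CPM does not grow with transcript length. An isoform share is the UMIs of the tissue-restricted gene as a percent of both genes of the pair, and does not depend on library size.

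The larger subunits of complex IV that carry the metal centres are mitochondrially encoded, and the nuclear subunits surround them and tune assembly, stability and turnover. COX6A2, COX7A1 and COX8B are known as the forms of heart and skeletal muscle, and COX6A1, COX7A2 and COX8A as the forms present in most tissues. COX4I2 is best known from lung, from vascular smooth muscle and pericytes, and from oxygen sensing, and COX4I1 is the common form of that pair.

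In the mm10 annotation (GRCm38) the genes lie apart: Cox4i1 (ENSMUSG00000031818) at chr8:120668222-120674207 on the plus strand, Cox4i2 (ENSMUSG00000009876) at chr2:152754173-152765037 on the plus strand, Cox6a1 (ENSMUSG00000041697) at chr5:115345642-115348981 on the minus strand and Cox7a2 (ENSMUSG00000032330) at chr9:79755361-79759878 on the minus strand. Cox8a (ENSMUSG00000035885) lies at chr19:7215153-7217616 on the minus strand. The 3 muscle forms are all on chromosome 7, Cox6a2 (ENSMUSG00000030785) at chr7:128205435-128206387 (minus), Cox7a1 (ENSMUSG00000074218) at chr7:30184144-30186078 (plus) and Cox8b (ENSMUSG00000025488) at chr7:140898945-140900446 (minus). For 5 of the 8 genes the 250 bases before the start listed by RefSeq (GRCm38.p6) were read in the direction of transcription. That start differs from the gene end given above for Cox7a1, Cox7a2 and Cox6a1. Their windows run into the gene as given above, by the overlap of the coordinates, and motif distances are counted from the RefSeq start. They are shown so that windows of muscle and common forms can be set side by side. The windows are chr7:140900447-140900696 (minus) for Cox8b, chr7:30183921-30184170 (plus) for Cox7a1, chr19:7217617-7217866 (minus) for Cox8a, chr9:79759854-79760103 (minus) for Cox7a2 and chr5:115348959-115349208 (minus) for Cox6a1. Capitals mark motif matches on either strand.
Cox8b: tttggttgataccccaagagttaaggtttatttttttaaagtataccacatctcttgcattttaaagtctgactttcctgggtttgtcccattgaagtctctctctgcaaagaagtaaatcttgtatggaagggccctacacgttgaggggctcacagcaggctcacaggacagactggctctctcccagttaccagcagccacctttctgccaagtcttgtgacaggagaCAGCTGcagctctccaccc
Cox7a1: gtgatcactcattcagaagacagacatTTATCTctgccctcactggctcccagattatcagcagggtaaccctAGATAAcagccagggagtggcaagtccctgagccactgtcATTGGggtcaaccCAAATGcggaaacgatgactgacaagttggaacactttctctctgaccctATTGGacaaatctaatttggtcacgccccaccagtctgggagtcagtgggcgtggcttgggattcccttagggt
Cox8a: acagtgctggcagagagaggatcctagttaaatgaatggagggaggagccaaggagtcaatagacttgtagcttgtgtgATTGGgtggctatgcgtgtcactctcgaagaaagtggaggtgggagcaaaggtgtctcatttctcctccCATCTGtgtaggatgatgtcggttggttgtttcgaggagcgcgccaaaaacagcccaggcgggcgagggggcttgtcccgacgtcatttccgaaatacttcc
Cox7a2: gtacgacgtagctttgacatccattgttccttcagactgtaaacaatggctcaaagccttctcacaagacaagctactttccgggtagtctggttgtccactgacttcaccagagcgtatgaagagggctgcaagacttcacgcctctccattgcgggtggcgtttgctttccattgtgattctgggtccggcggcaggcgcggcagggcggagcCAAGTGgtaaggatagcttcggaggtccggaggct
Cox6a1: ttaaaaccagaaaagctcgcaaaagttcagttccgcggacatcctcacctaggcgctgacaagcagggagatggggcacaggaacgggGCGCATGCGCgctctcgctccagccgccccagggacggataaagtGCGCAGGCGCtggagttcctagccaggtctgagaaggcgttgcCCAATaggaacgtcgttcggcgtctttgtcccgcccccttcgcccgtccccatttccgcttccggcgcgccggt
Of these windows, Cox8b alone held CAGCTG, a core recognised by muscle basic helix-loop-helix factors, with its first base 19 bases before the start. CAGCTG occurs in 13.0% of 32851 promoter windows of the same length, and each CAGCTG is also a match to CANNTG, which 66.2% hold. Cox7a1, Cox7a2 and Cox8a each held 1 CANNTG that was not CAGCTG. Cox7a1 held AGATAA, which holds the core of a zinc finger family active in the heart, at 223 and 177 bases before the start (9.99% of windows hold it). Cox6a1 held the NRF1 palindrome, searched without mismatch and with 1 free base at its centre, at 162 and 117 bases (3.74% of windows). CCAAT was found in Cox6a1, Cox7a1 and Cox8a (33.9% of windows). The core of estrogen-related receptors, AAGGTCA (4.08%), and 2 spellings of the MEF2 site, held by 0.140% and 0.104% of windows, matched none of the 5 windows. These matches describe letters and were not tested against the levels.

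Cardiomyocytes numbered 151 to 7145 a matrix, with a median of 13940 to 25403 UMIs, and other cells 1637 to 11941, with a median of 7324 to 26049. The 8 cardiomyocyte markers (Tnnt2, Actc1, Myh6, Tnni3, Ttn, Actn2, Myl4 and Tnnc1) summed to 29723 to 39846 CPM in heart cardiomyocytes and 983.8 to 1812 CPM in other cells of hearts. In embryos the sums were 15451 to 21510 CPM and 40.0 to 45.5 CPM. The median mitochondrial share of a cardiomyocyte was 2.45% at E8.5, 10.7% and 11.1% in the E16.5 libraries and 22.0% in P3, where 4464 of 7145 cardiomyocytes were above the ceiling the study set for that stage. Any 2 libraries shared at most 181 barcodes. How reads that fit a near-identical gene copy equally well were counted was not checked, so levels of members with processed copies are uncertain.

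Cox6a2, the muscle form of subunit 6A, was higher at each later stage. Its level in cardiomyocytes was 299 CPM at E8.5, 534 and 603 CPM at E10.5, 1158 and 1186 CPM at E12.5, 1228 and 1236 CPM at E14.5, 2728 and 2653 CPM at E16.5 and 4089 CPM at P3. No stage overlapped another, although E12.5 and E14.5 lay close together. From E12.5 to E16.5 the log2 fold change was 1.41 ± 0.09 (SE, n = 2 libraries a stage, adjusted p = 5.4e-10, edgeR quasi-likelihood F test, Benjamini-Hochberg over 16587 genes), and from E12.5 to E14.5 it was 0.08 ± 0.09 (adjusted p = 0.53). Over that smaller step the chambers (described below) moved in opposite directions. Ventricular cells went from 907 and 969 CPM to 1144 and 1172 CPM, and atrial cells from 2421 and 2352 CPM to 2072 and 2120 CPM. The part of the chamber mix in the summed step was not tested.

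Cox8b, the muscle form of subunit 8, started near 0. E8.5 cardiomyocytes held 6 Cox8b UMIs among 9201 of the pair, 1.54 CPM. The E10.5 libraries had 17.0 and 28.9 CPM, the E12.5 libraries 57.8 and 100.5 CPM, the E14.5 libraries 173 and 178 CPM, the E16.5 libraries 914 and 936 CPM, and P3 had 1449 CPM. No stage overlapped its neighbours, although the 2 E12.5 libraries differed from each other more than those of E14.5 or E16.5 did. The change from E12.5 to E16.5 was 3.76 ± 0.21 on the log2 scale (adjusted p = 1.2e-10), with a separate step at each of the intervals tested: 1.92 ± 0.30 to E12.5, 1.16 ± 0.19 to E14.5 and 2.60 ± 0.20 to E16.5 (adjusted p = 7.0e-05, 2.3e-04 and 2.6e-08).

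Cox7a1, the muscle form of subunit 7A, had its main step between E14.5 and E16.5. Cardiomyocytes had 257 CPM at E8.5, 236 and 274 CPM at E10.5, 351 and 459 CPM at E12.5, 445 and 452 CPM at E14.5, 1111 and 1131 CPM at E16.5 and 943 CPM at P3. The 2 libraries of E12.5 enclosed both libraries of E14.5, and those of E16.5 stood above all other matrices. P3 pools 2 wells, told apart by the barcode suffix. Their Cox7a1 shares of the pair, 22.1% and 29.2%, lay on either side of the E16.5 libraries (24.8% and 26.6%), so P3 is not ordered against E16.5. The log2 fold change was 0.80 ± 0.14 from E10.5 to E12.5 (adjusted p = 1.9e-04). That from E14.5 to E16.5 was 1.52 ± 0.13 (adjusted p = 1.2e-07), and that from E12.5 to E14.5 was 0.16 ± 0.13 (adjusted p = 0.40), a value that reached 0.33 with adjusted p = 0.0031 without E12.5 replicate 2.

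Cox4i2 went the other way in cardiomyocytes. It was at 47.4 CPM at E8.5, 55.8 and 78.3 CPM at E10.5, 33.1 and 32.3 CPM at E12.5, 13.8 and 13.3 CPM at E14.5, 3.81 and 4.68 CPM at E16.5 and 3.76 CPM at P3. From E10.5 on, no stage with 2 libraries overlapped the next. Its log2 fold change was -0.90 ± 0.13 from E10.5 to E12.5, -1.26 ± 0.11 from E12.5 to E14.5 and -1.49 ± 0.13 from E14.5 to E16.5 (adjusted p = 2.7e-05, 1.7e-07 and 1.0e-07), in all -2.75 ± 0.12 from E12.5 to E16.5 (adjusted p = 5.5e-12). Over the alternatives run, the first step ranged from -1.61 to -0.49 and the change from E12.5 to E16.5 from -3.12 to -1.89. Without the cardiomyocytes of intermediate chamber profile (described with the chambers), E12.5 stood at 17.9 and 18.8 CPM and E14.5 at 12.3 and 12.97 CPM, and the step between them was -0.55 (adjusted p = 8.8e-04). At E12.5 cells with 40% to 50% atrial share, counted as ventricular, held 308 and 427 of the 662 and 892 ventricular Cox4i2 UMIs. Bins under 40% with at least 20 barcodes had 10.1 to 18.4 CPM at E12.5 and 7.30 to 16.8 CPM at E14.5. These ranges overlap, and a step within those bins was not tested. The 2 wells of P3, told apart by the barcode suffix, had 2.82 and 6.17 CPM, so P3 is not ordered against E16.5.

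**Figure D1:**
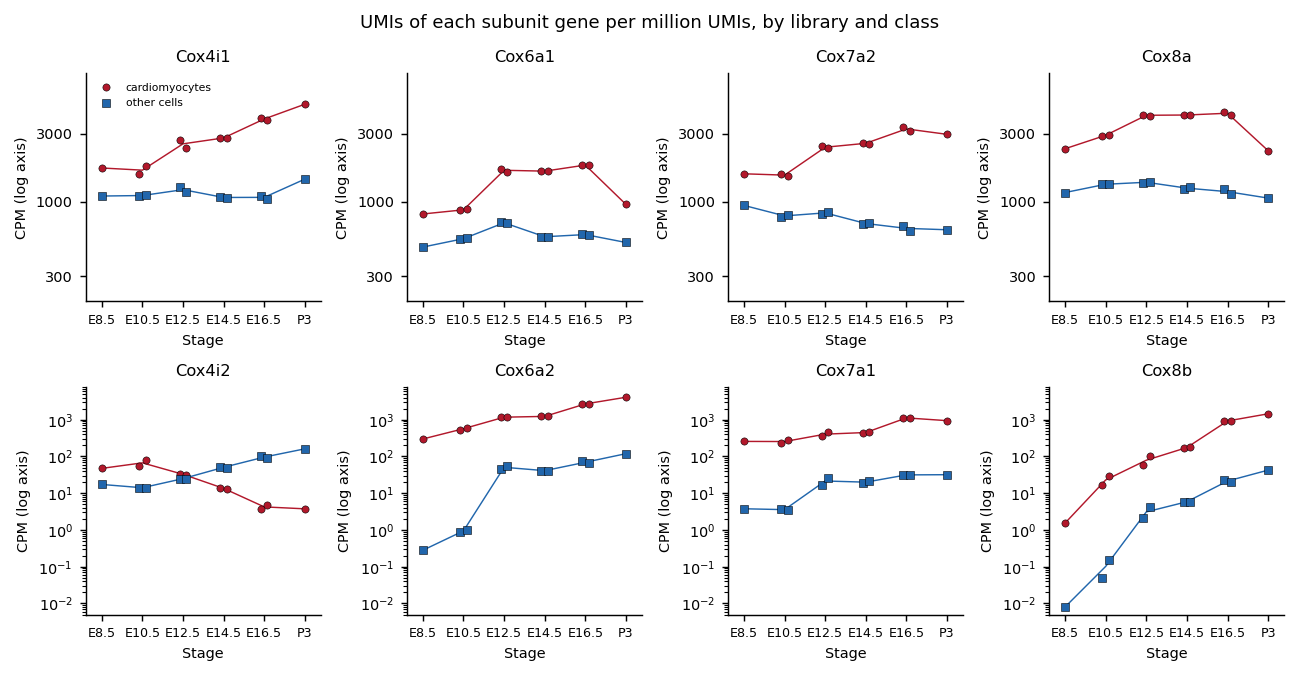
Level of each gene (CPM, log axis) against stage, 1 point a matrix, with lines through stage means; circles are cardiomyocytes and squares other cells, common forms on top and restricted forms below. Cox6a2, Cox7a1 and Cox8b of cardiomyocytes lie above other cells at every stage, while Cox4i2 crosses between E12.5 (33.1 and 32.3 against 25.1 and 24.8 CPM) and E14.5 (13.8 and 13.3 against 52.0 and 49.4 CPM), with 49.1% and 46.1% of the E12.5 cardiomyocyte UMIs held by 107 and 183 cells.

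The common partners were the more abundant transcript of their pair in the cardiomyocyte sums of every library up to E14.5, although not within atrial or intermediate cells for subunit 6A, and their levels varied less. Cox4i1 ran from 1555 CPM in an E10.5 library to 3886 CPM in an E16.5 library, and reached 4846 CPM at P3. Cox7a2 ran from 1515 to 3374 CPM over the same stages, with 2977 CPM at P3. Cox6a1 (872 to 1816 CPM) and Cox8a (2906 to 4291 CPM) changed least between E12.5 and E16.5, by 0.33 ± 0.06 and 0.26 ± 0.07 on the log2 scale (adjusted p = 2.3e-04 and 0.0036), although the Cox8a change fell to 0.17 with adjusted p = 0.11 when every cell was thinned to 2000 UMIs. In mean CPM, which lacks the scaling of the test, the changes were smaller: Cox6a1 went from 1664 to 1810 and Cox8a from 4052 to 4188. Both stood lower at P3, at 958 CPM for Cox6a1 and 2283 CPM for Cox8a.

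All 8 genes passed the test in cardiomyocytes from E12.5 to E16.5, 7 of them higher and Cox4i2 lower, where 51.9% of all genes tested passed (26.3% higher, 25.6% lower). The Cox8a calls go with a small change in mean CPM, 4052 at E12.5, 4070 at E14.5 and 4188 at E16.5. All 8 also passed between E14.5 and E16.5 (33.9% of genes, 17.1% higher and 16.8% lower), with Cox8a at 0.24 ± 0.07 (adjusted p = 0.0088) losing its call without either E14.5 library (0.25 with adjusted p = 0.077 and 0.24 with adjusted p = 0.076) and when thinned (0.19, adjusted p = 0.12). Between E12.5 and E14.5 2 of the 8, Cox4i2 and Cox8b, passed (29.3% of genes, 15.5% higher and 13.8% lower), and Cox4i1 and Cox7a1 also passed when 1 of the E12.5 libraries was left out, replicate 1 for Cox4i1 (0.24, adjusted p = 0.045) and replicate 2 for Cox7a1. Between E10.5 and E12.5 all 8 passed (39.5% of genes, 20.9% higher and 18.6% lower), 7 higher and Cox4i2 lower, but embryo against heart and the lower Tnnt2 cut of embryos cannot be told apart from stage there.

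The shares put each pair on 1 scale. In cardiomyocytes Cox6a2 made up 26.7% of its pair at E8.5, then 38.0% and 40.6% in the E10.5 libraries, 40.5% and 42.1% in those of E12.5, 42.9% and 42.8% in those of E14.5, 60.0% and 59.5% in those of E16.5, and 81.0% (95% exact binomial interval 80.9 to 81.1, counting error only) in P3. Cox8b made up 0.0652% of its pair at E8.5, 0.581% and 0.970% in the E10.5 libraries, 1.40% and 2.43% in those of E12.5, 4.08% and 4.18% in those of E14.5, 17.6% and 18.6% in those of E16.5 and 38.8% in P3. Under the study's mitochondrial ceilings, which leave out barcodes with a high mitochondrial share, the E12.5 values were 0.911% and 1.498%. For Cox7a1 the share lay between 12.49% and 16.2% in all 7 matrices up to E14.5, stood at 24.8% and 26.6% in the E16.5 libraries and 24.1% in P3. In the cardiomyocyte sums Cox6a2 was thus the major form from E16.5, although in atrial cells it was so at E12.5 already (63.6% and 63.4%). Cox7a1 and Cox8b remained the minor form in every summed matrix. P3 pools 2 wells, and Cox8b made up 51.3% in the second of them.

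Cox4i2 had the reverse course, from 2.67% at E8.5 and 3.46% and 4.21% in the E10.5 libraries to 1.20% and 1.33% in those of E12.5, 0.491% and 0.470% in those of E14.5, 0.0979% and 0.125% in those of E16.5 and 0.0776% in P3. The P3 value rests on 422 Cox4i2 UMIs among 543927 of the pair. Under the mitochondrial ceilings it was 0.159%, above the 0.105% and 0.128% of the E16.5 libraries, and the 2 wells of P3 had 0.0581% and 0.127%, so no order of E16.5 and P3 is read from this share.

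**Figure D2:**
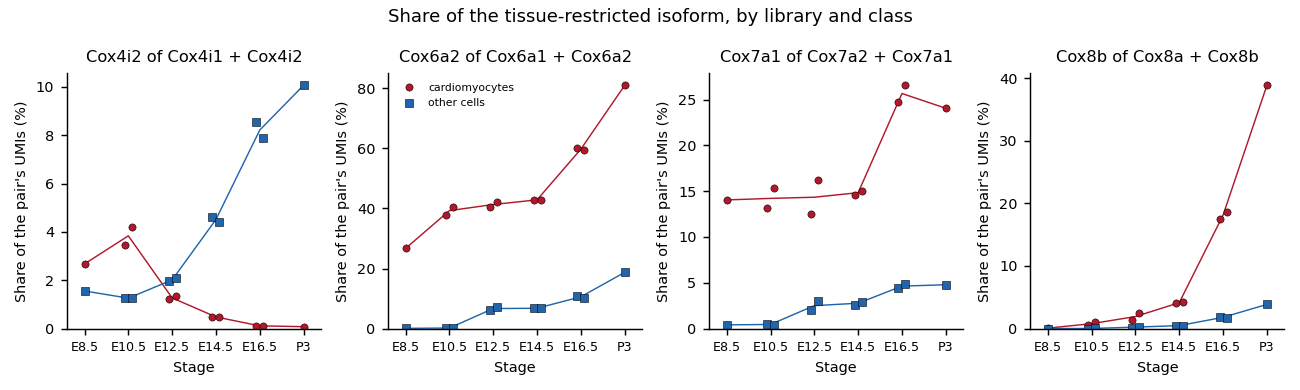
Share of the restricted gene in the UMIs of its pair (%) against stage, 1 point a matrix, with lines through stage means; circles are cardiomyocytes and squares other cells. Cox6a2 climbs from 26.7% to 81.0% and Cox8b from 0.0652% to 38.8% in cardiomyocytes, whereas Cox4i2 climbs in other cells from 1.55% to 10.1%.

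At P3 the pooled matrix held 2 wells, told apart by the barcode suffix, and their cardiomyocytes differed in depth (median 19007 UMIs over 4208 cells, and 10398 over 2937 cells). The Cox8b share was 33.8% in the first well and 51.3% in the second, that of Cox7a1 22.1% and 29.2%, and that of Cox6a2 80.5% and 82.7%. Both Cox8b shares lay above every E16.5 library. Under the study's mitochondrial ceilings the P3 shares were 32.4% for Cox8b, 23.3% for Cox7a1 and 78.1% for Cox6a2.
Relative to the mean of the E16.5 libraries, the P3 level was 1.57-fold for Cox8b, 1.52-fold for Cox6a2 and 0.842-fold for Cox7a1. Scaled to nuclear UMIs alone these ratios were 1.76, 1.70 and 0.944.

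Within single cardiomyocytes with at least 20 UMIs of the pair, both forms of subunits 6A and 7A were usually seen, with 0% to 10.4% of cells lacking the restricted form. For Cox4i2 that share was 44.2% at E8.5, 79.6% and 80.4% in the E12.5 libraries and 96.3% in P3. Among these cells with at least 20 UMIs of the pair, the median Cox6a2 share was 35.6% and 36.8% in the E12.5 libraries, 40.2% and 40.0% in those of E14.5, 59.4% in both of E16.5 and 82.6% in P3. Cells in which Cox6a2 exceeded Cox6a1 were 27.6% and 28.7% in the E12.5 libraries, 74.0% and 73.7% in those of E16.5 and 99.5% in P3. The middle 80% of E12.5 cells in replicate 1 ran from 13.3% to 66.1%, and that of P3 cells from 70% to 91.5%, a narrower spread. The summed share in that E12.5 library was 33.9% in ventricular and 63.6% in atrial cells (chambers are described below), against 81.0% and 80.8% at P3. The part of chamber in the spread was not tested.
For Cox8b the median cell was at 0.629% and 1.02% in the E12.5 libraries, 16.7% and 17.8% in those of E16.5 and 40% in P3, with the middle 80% of P3 cells between 22.1% and 63.6%. Cardiomyocytes without any Cox8b UMI were 96.5% at E8.5, 85.2% and 84.6% in the E10.5 libraries, 48.1% and 39.4% in the E12.5 libraries, 20.6% and 22.4% in those of E14.5, 0.278% and 0.670% in those of E16.5 and 0.0584% in P3, shares that also move with depth. When every cell was thinned to 2000 UMIs, those with a Cox8b UMI were 10.6% and 15.8% in the E12.5 libraries, 73.7% and 74.4% in those of E16.5 and 91.3% in P3. Across cells of a library the Cox6a2 and Cox8b shares had a Spearman rho of 0.18 to 0.46, and those of Cox7a1 and Cox8b 0.10 to 0.50. These cells share a library and its depth, and sampling of few UMIs limits both values.

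**Figure D3:**
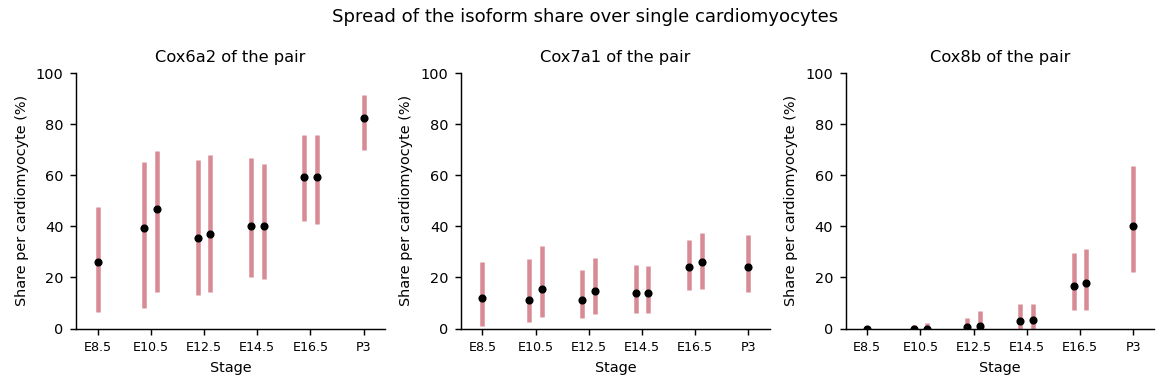
Share of the restricted gene (%) in single cardiomyocytes with at least 20 UMIs of the pair, against stage, 1 bar a matrix; points are medians and bars run from the 10th to the 90th percentile of cells. The Cox6a2 median goes from 26.1% at E8.5 to 82.6% at P3, and the Cox8b median leaves 0 only from E12.5.

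Against the other cells of the same libraries, all 8 genes passed the test at each stage with 2 libraries, where 48.2%, 71.3%, 70.8% and 74.2% of genes passed from E10.5 to E16.5. Higher in cardiomyocytes were 22.4%, 35.4%, 35.3% and 35.6% of genes and all 8 members, or 7 from E14.5. Lower were 25.8%, 35.9%, 35.4% and 38.5% of genes and, from E14.5, Cox4i2. The muscle forms differed most. Cox6a2 was higher in cardiomyocytes by 9.17 ± 0.13, 4.66 ± 0.10, 5.10 ± 0.11 and 5.50 ± 0.11 on the log2 scale at these stages, Cox8b by 7.73 ± 0.58, 4.77 ± 0.26, 5.10 ± 0.26 and 5.66 ± 0.24, and Cox7a1 by 6.09 ± 0.17, 4.36 ± 0.15, 4.69 ± 0.16 and 5.38 ± 0.16 (largest of these adjusted p = 4.5e-09). The common forms were higher by 0.53 to 1.08 at E10.5 and by 1.86 to 2.56 at E16.5. The call for Cox4i1 at E10.5 (0.53 ± 0.09, adjusted p = 5.9e-05) was lost without E10.5 replicate 2 (0.25, adjusted p = 0.13). Genes as a whole had a median of -0.14 at E10.5, and of -0.04 to 0 at the later stages. Other cells came from embryos without head and limbs at E10.5 and from hearts later, and the Tnnt2 cut was lower at E10.5. Between E10.5 and E12.5, stage, tissue and cut therefore cannot be told apart in these differences.

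Cox4i2 changed sides between the summed classes. Cardiomyocytes had more of it at E10.5 (2.19 ± 0.13, adjusted p = 3.4e-10) and at E12.5 (0.52 ± 0.10, adjusted p = 1.5e-04), and less at E14.5 (-1.70 ± 0.11, adjusted p = 1.5e-10) and at E16.5 (-4.29 ± 0.12, adjusted p = 1.0e-15). The E12.5 excess lay in few cells: 107 and 183 cardiomyocytes with an intermediate chamber profile (described with the chambers) held 49.1% and 46.1% of the Cox4i2 UMIs, and the other cardiomyocytes stood below other cells (-0.33 on the log2 scale, adjusted p = 0.0071), the reverse of the sums. In other cells of embryos Cox4i2 was at 17.3 CPM at E8.5 and 13.97 and 14.2 CPM at E10.5. In other cells of hearts, another tissue, it was at 25.1 and 24.8 CPM at E12.5, 52.0 and 49.4 CPM at E14.5, 103 and 89.5 CPM at E16.5 and 161 CPM at P3. The rise there from E12.5 to E16.5 was 2.06 ± 0.10 (adjusted p = 3.7e-11). Mural-like cells, placed by pericyte and smooth muscle markers, numbered 2 and 1 in the E12.5 libraries, 93 and 76 in those of E16.5 and 367 in P3. They held 45.02% and 43.3% of the Cox4i2 UMIs of other cells at E16.5 and 52.7% at P3, and without them other cells were at 59.7 and 53.2 CPM and at 82.9 CPM. Fewer or more cells of a type and less or more RNA per cell cannot be told apart in these sums. The difference between the 2 cell classes over this span was -4.81 ± 0.16 (adjusted p = 1.1e-12). That direction held under all alternatives run, from -5.21 to -3.91, the last of these without the intermediate cardiomyocytes.

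Over 6 heart libraries from E12.5 to E16.5, the share of Cox6a2 was 40.0 points higher in cardiomyocytes than in other cells (SD 7.16), that of Cox7a1 14.99 points (SD 4.79) and that of Cox8b 7.22 points (SD 7.11), each in 6 of 6 libraries. The share of Cox4i2 was 4.29 points lower (SD 3.31), also in 6 of 6. Each gave p = 0.03125 in an exact two-sided sign-flip permutation test, adjusted p = 0.03125 over the 4 pairs, which is the smallest p this design allows. With both E10.5 libraries added, the Cox4i2 difference was -2.58 points (permutation p = 0.15).

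Muscle forms in other cells of hearts were set beside Tnnt2, since droplets also take up free RNA. Tnnt2 is also the gene that parts the classes, which limits what its ratio can show between them. Cox6a2 was at 46.1 and 55.5 CPM at E12.5, 40.8 and 41.4 CPM at E14.5, 73.0 and 66.2 CPM at E16.5 and 119 CPM at P3, against 0.901 and 0.988 CPM in other cells of E10.5 embryos. At E16.5 other cells held 0.337 and 0.329 Cox6a2 UMIs for each Tnnt2 UMI, barcodes under 100 UMIs held 0.344 and 0.341, and cardiomyocytes 0.385 and 0.367. For Cox8b these ratios were 0.104 and 0.101, 0.132 and 0.128, and 0.129 and 0.130, and for Cox7a1 0.146 and 0.156, 0.168 and 0.152, and 0.157 and 0.157. The Cox6a2 ratio of other cells was 0.308 and 0.299 at E12.5 against 0.214 and 0.260 in barcodes under 100 UMIs, and 0.240 and 0.237 at E14.5 against 0.198 and 0.222. At E12.5 the barcodes of no class had 0.648 and 0.498, at 372 and 389 CPM of Cox6a2, and endothelial-like cells 0.256 and 0.289, at 27.7 and 37.0 CPM. That of Cox8b was 0.0140 and 0.0222 at E12.5 against 0.0224 and 0.0362, and 0.0347 and 0.0334 at E14.5 against 0.0376 and 0.0379. Among the small classes of E14.5, erythroid-like cells had 1.08 and 0.701 Cox6a2 UMIs for each Tnnt2 UMI against 0.198 and 0.222, and macrophage-like cells 0.297 and 0.370 for Cox7a1 against 0.0874 and 0.0829, the latter from 19 and 10 Cox7a1 UMIs. For P3 no barcodes under 100 UMIs were read.
Macrophage-like barcodes, a class not known for muscle forms, were read the same way. Thinned to 2000 UMIs, 10.6% and 11.8% had a Cox6a2 UMI at E16.5 (median depth 10429 and 8036 UMIs before thinning), against 94.1% and 94.9% of cardiomyocytes (19699 and 14110 UMIs). In that class the 8 cardiomyocyte markers summed to 564.9 to 1392 CPM over the heart libraries. The rise of Cox6a2, Cox7a1 and Cox8b in other cells from E12.5 to E16.5 (0.57 ± 0.09, 0.65 ± 0.15 and 2.88 ± 0.28, adjusted p = 7.0e-05, 0.0017 and 2.3e-07) stood beside Tnnt2 at 149.7 and 185 CPM in other cells at E12.5 and 217 and 201 CPM at E16.5, while the 8 cardiomyocyte markers together summed to 1369 and 1812 CPM and to 1049 and 999.9 CPM. The part of free RNA in these levels was not tested.
In E10.5 embryos other cells had 0.932 and 0.838 Cox7a1 UMIs for each Tnnt2 UMI, against 0.140 and 0.157 in cardiomyocytes and 0.293 and 0.263 in barcodes under 100 UMIs. Its level there was low, 3.69 and 3.47 CPM, and neural-like barcodes had 4.95 and 4.32 CPM.

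In other cells from E12.5 to E16.5, 4 of the 8 genes were higher and 2 lower (49.5% of genes passed, 26.4% higher and 23.1% lower). The 2 lower ones were Cox6a1 (-0.17 ± 0.06, adjusted p = 0.033) and Cox7a2 (-0.25 ± 0.07, adjusted p = 0.0078). Both calls were lost without E16.5 replicate 2 (-0.13 with adjusted p = 0.19 and -0.17 with adjusted p = 0.089), and that of Cox6a1 also without either E14.5 library (-0.17 each, adjusted p = 0.059 and 0.058) and under 4 other gates and depths (-0.21 to -0.11, adjusted p = 0.064 to 0.16). Tested directly, the change from E12.5 to E16.5 was greater in cardiomyocytes for 6 genes and smaller for Cox4i2 (35.3% of genes passed, 17.4% and 17.9% in these directions), by 1.03 ± 0.20 for Cox7a1 and 0.84 ± 0.13 for Cox6a2 (adjusted p = 5.8e-04 and 4.7e-05). Cox8b missed the threshold at 0.89 ± 0.35 (adjusted p = 0.059), and passed it with the library as a block, since both classes come from 1 suspension (0.86, adjusted p = 6.2e-06). Its value ran from 0.30 to 1.58 over the alternatives (adjusted p = 0.72 when thinned, 0.0019 under the mitochondrial ceilings). The Cox6a2 difference was 0.19 (adjusted p = 0.37) when other cells were limited to Tnnt2 below 300 CPM, and 0.32 (adjusted p = 0.16) when every cell was thinned to 2000 UMIs.

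Cardiomyocytes of hearts were then parted by chamber, from the UMIs of Sln, Myl7 and Myl4 (atrial) as a share of these and Myl2, Myl3 and Myh7 (ventricular). Cells at 80% or more are called atrial here, and cells under 50% ventricular. This rule was set after the data were seen. From E12.5 to E16.5 the atrial set held 143 to 292 cells a library and the ventricular set 1390 to 3301, and at P3 they held 1203 and 5910. Genes outside the rule, over the same 6 libraries, followed it: Stard10 and Nr2f2, atrial markers, had 192 to 271 CPM and 78.1 to 130 CPM in atrial cells against 9.50 to 14.3 CPM and 1.65 to 2.91 CPM in ventricular cells, and the ventricular factors Hey2 and Irx4 had 1.00 to 3.05 CPM and 0.751 to 2.54 CPM against 51.7 to 83.5 CPM and 42.4 to 58.0 CPM.

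Cox6a2 was higher in atrial cells before E16.5. Atrial cells had 2421 and 2352 CPM at E12.5, 2072 and 2120 CPM at E14.5, 3491 and 3223 CPM at E16.5 and 3522 CPM at P3. Ventricular cells had 907 and 969 CPM, 1144 and 1172 CPM, 2666 and 2602 CPM, and 4200 CPM. The sets did not overlap at any stage, and at P3 their order was reversed. Atrial over ventricular, the log2 fold change was 1.18 ± 0.08 at E12.5 (adjusted p = 5.9e-10), 0.68 ± 0.08 at E14.5 (adjusted p = 1.3e-06) and 0.19 ± 0.08 at E16.5 (adjusted p = 0.066, or 2.8e-05 with the library as a block, since both sets come from 1 suspension). The difference shrank from E12.5 to E16.5 by a tested -0.99 ± 0.11 (adjusted p = 4.2e-06).

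Cox7a1 crossed over. At E12.5 atrial cells had 560 and 710 CPM and ventricular cells 317 and 422 CPM, and at E14.5 523 and 544 CPM against 438 and 446 CPM. At E16.5 they had 918 and 923 CPM against 1127 and 1150 CPM, and at P3 855 against 961 CPM. The fold change went from 0.61 ± 0.10 (adjusted p = 1.1e-04) over 0.10 ± 0.11 (adjusted p = 0.52) to -0.47 ± 0.10 (adjusted p = 0.0014), a change of -1.08 ± 0.15 (adjusted p = 4.4e-05). Averaged over the 3 stages it was 0.08 ± 0.06 (adjusted p = 0.27, or 0.0033 with the library block). As a share of its pair, Cox7a1 was higher in atrial cells at each stage, without a test. The atrial shares were 21.7% and 26.5% against 11.1% and 14.7% at E12.5, and 21.7% and 22.5% against 14.1% and 14.6% at E14.5. They were 27.2% and 29.3% against 24.6% and 26.4% at E16.5, and 26.2% against 23.7% at P3.

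Cox8b was lower in atrial cells throughout. They had 44.2 and 55.4 CPM at E12.5, 107 and 111 CPM at E14.5, 482 and 463 CPM at E16.5 and 1123 CPM at P3, against 58.7 and 105 CPM, 174 and 180 CPM, 951 and 979 CPM, and 1515 CPM in ventricular cells. No atrial library reached a ventricular one of its stage. The mean difference over the 3 stages was -0.98 ± 0.09 (adjusted p = 4.3e-08).

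From E12.5 to E16.5 the 4 common forms were all lower in atrial cells, averaging -0.72 ± 0.05 for Cox6a1, -0.61 ± 0.05 for Cox7a2, -0.53 ± 0.05 for Cox4i1 and -0.46 ± 0.04 for Cox8a (adjusted p = 1.7e-10, 2.6e-09, 9.0e-08 and 4.1e-08). In this average 7 of the 8 genes passed, 1 higher and 6 lower, beside 51.9% of 13601 genes (24.9% higher, 27% lower). At the single stages 34.4%, 33.6% and 32.8% of genes passed (16%, 16.6% and 16.6% higher, 18.4%, 17% and 16.2% lower) and 8, 7 and 6 of the 8, with Cox4i1 at E12.5 (-0.28 ± 0.09, adjusted p = 0.024) losing its call without either E14.5 library (-0.27 each, adjusted p = 0.070 and 0.068). The change of the atrial difference from E12.5 to E16.5 passed for 3 genes, all downward (11.3% of genes, 6.67% upward and 4.6% downward), and with the library block also for Cox6a1 (-0.29, adjusted p = 1.4e-04), Cox7a2 (-0.17, adjusted p = 7.4e-04) and Cox8b (-0.34, adjusted p = 0.026). As shares, Cox6a2 made up 63.6% and 63.4% of its pair in atrial cells against 33.9% and 36.4% in ventricular cells at E12.5, 73.8% and 73.5% against 58.8% and 58.3% at E16.5, and 80.8% against 81.0% at P3. Atrial cells of E16.5 also had a lower median mitochondrial share (7.95% and 8.90%) than ventricular cells (10.9% and 11.3%), as did those of P3 (13.99% against 23.2%), and its part in these differences was not tested.

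**Figure D4:**
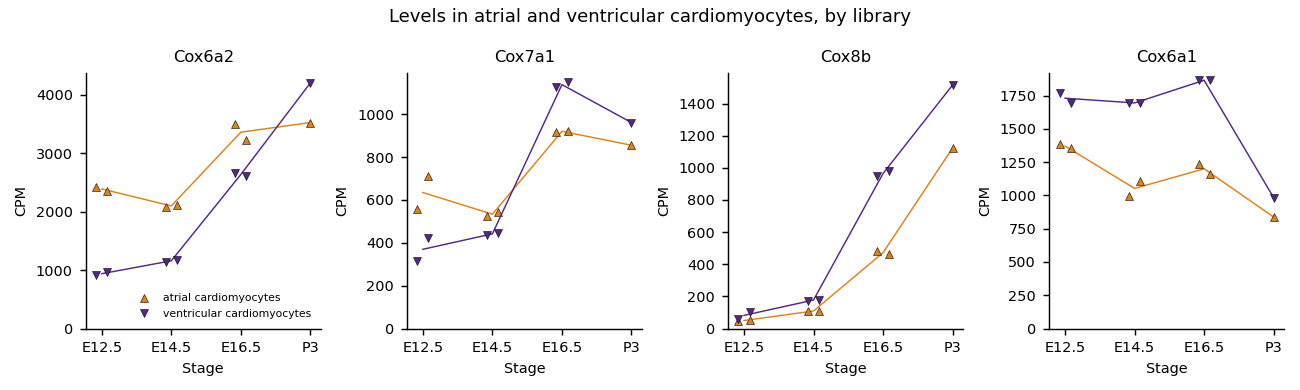
Level (CPM, linear axis from 0) of Cox6a2, Cox7a1, Cox8b and Cox6a1 against stage in atrial (triangles up) and ventricular (triangles down) cardiomyocytes, 1 point a matrix, lines through stage means. Cox6a2 starts higher in atrial cells (2421 and 2352 against 907 and 969 CPM at E12.5) and ends lower at P3 (3522 against 4200 CPM), while Cox8b and Cox6a1 are lower in atrial cells at each stage.

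The chamber difference of Cox4i2 depended on single libraries and on the chamber cut. It averaged -0.45 ± 0.15 in atrial over ventricular cells (adjusted p = 0.018), and -0.36, -0.28 and -0.27 without E12.5 replicate 2, E14.5 replicate 1 or E16.5 replicate 2 (adjusted p = 0.075, 0.23 and 0.13). The calls at E12.5 (-0.61, adjusted p = 0.012) and E14.5 (-0.98, adjusted p = 0.012) were lost without E12.5 replicate 2 (-0.32, adjusted p = 0.40) and without E14.5 replicate 1 (-0.45, adjusted p = 0.53). With stricter chamber cuts all 3 calls were lost (-0.43, -0.45 and -1.10 for the average, E12.5 and E14.5, adjusted p = 0.14, 0.33 and 0.071). Cardiomyocytes between the 2 chamber cuts held more of it at E12.5 and E14.5. At E12.5 these 107 and 183 cells had 277 and 207 CPM of Cox4i2, against 18.1 and 19.7 CPM in ventricular and 16.04 and 11.9 CPM in atrial cells, and Cox4i2 made up 8.72% and 7.86% of their pair. At E14.5 the 81 and 55 intermediate cells had 71.3 and 29.8 CPM, and at E16.5 the 20 and 14 cells had 0 and 1 Cox4i2 UMI.
Other genes set the E12.5 intermediate cells apart, named here after their values were seen. Rspo3, a secreted WNT agonist, had 292 and 314 CPM there against 23.3 and 22.8 CPM in ventricular and 94.7 and 97.5 CPM in atrial cells. Ndufa4l2, a relative of the complex IV subunit Ndufa4, had 115 and 113 CPM against at most 11.1 CPM in either chamber, and Higd1a, a hypoxia-inducible complex IV factor, 1022 and 869 CPM against 497 and 429 CPM in ventricular cells. Tbx3, a T-box repressor, did not part them from atrial cells, with 27.2 and 29.5 CPM against 25.9 and 33.6 CPM there and 5.26 and 6.15 CPM in ventricular cells.

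Outside cardiomyocytes, barcodes were placed in a class by the marker list with the greatest share of its genes detected, at least 3. Mural-like cells (pericyte and smooth muscle markers Rgs5, Kcnj8, Abcc9, Higd1b, Notch3, Cspg4 and Myh11) carried Cox4i2 at 900 and 843 CPM at E16.5 (93 and 76 cells) and at 1075 CPM at P3 (367 cells). There it made up 36.4% and 35.8% of its pair at E16.5 and 37.0% at P3. Mesenchymal-like cells had 50.4 and 48.1 CPM at E12.5, 101 and 94.7 CPM at E14.5, 108 and 103 CPM at E16.5 and 117 CPM at P3. Endothelial-like cells were at 8.38 and 6.12 CPM at E16.5, epicardial-like cells at 2.96 and 2.39 CPM and macrophage-like cells at 13.1 and 4.82 CPM. The mural-like cells stood above all other classes in each matrix that had at least 10 of them, including barcodes tied between 2 classes (394 and 317 CPM at E16.5). Doublets were not removed.

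With 2 E16.5 libraries, mural-like cells exceeded the mean log2 level of the other non-myocyte classes by 5.72 ± 0.15 for Cox4i2 (edgeR, adjusted p = 2.3e-19 over 9273 genes). Each class weighs alike in that mean, so classes with few Cox4i2 UMIs pull it down. Epicardial-like cells held 3 and 1, macrophage-like cells 10 and 2, and erythroid-like cells 12 and 2. In that comparison 4 of the 8 genes passed, all higher, beside 23.2% of genes (14.8% higher, 8.35% lower). The other 3 were Cox8a at 0.57 ± 0.09, Cox7a2 at 0.35 ± 0.11 and Cox4i1 at 0.31 ± 0.09 (adjusted p = 4.7e-05, 0.015 and 0.019). With 1 of the libraries left out, where the other groups give the spread, Cox4i1 kept its fold (0.31 and 0.35) with adjusted p = 0.20 and 0.11, and Cox7a2 had 0.29 with adjusted p = 0.22 without replicate 2. Ndufa4l2 had a difference of 6.47 ± 0.18 there, and Ndufa4 one of -0.78 ± 0.12 (adjusted p = 6.8e-18 and 1.4e-05).

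Thinned to 2000 UMIs, 80.6% and 72.4% of mural-like cells had a Cox4i2 UMI at E16.5 and 82.0% at P3. The corresponding shares were 0.416% and 0.718% of cardiomyocytes and 0.456% and 1.73% of endothelial-like cells at E16.5, with the macrophage-like class at 1.52% and 1.96%. Among mesenchymal-like cells the Cox4i2 level went with the number of mural markers seen: at E16.5 it was 60.6 and 68.0 CPM in cells with none, 87.4 and 95.2 CPM with 1 and 219 and 215 CPM with 2 or more. In cardiomyocytes of late stages the few barcodes with at least 3 Cox4i2 UMIs (21 and 18 at E16.5 and 29 at P3) carried Rgs5 at 200 and 335 CPM and at 1143 CPM, against 0.651 and 0.725 CPM and 7.80 CPM in cardiomyocytes with none, and their part in the residual Cox4i2 level was not tested. At E12.5 the 129 and 175 such barcodes had Rgs5 at 5.11 and 1.55 CPM, against 3.75 and 2.47 CPM.

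In E10.5 embryos the highest class was another one. Macrophage-like barcodes (27 and 28) had 150 and 196 CPM of Cox4i2, 10.2% and 12.4% of the pair, against 15.9 and 18.8 CPM in mesenchymal-like, 8.48 and 8.04 CPM in endothelial-like and 6.14 and 6.47 CPM in neural-like cells. In hearts the macrophage-like class held 14.2 CPM (E12.5 replicate 1, 17 cells) or less.

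**Figure D5:**
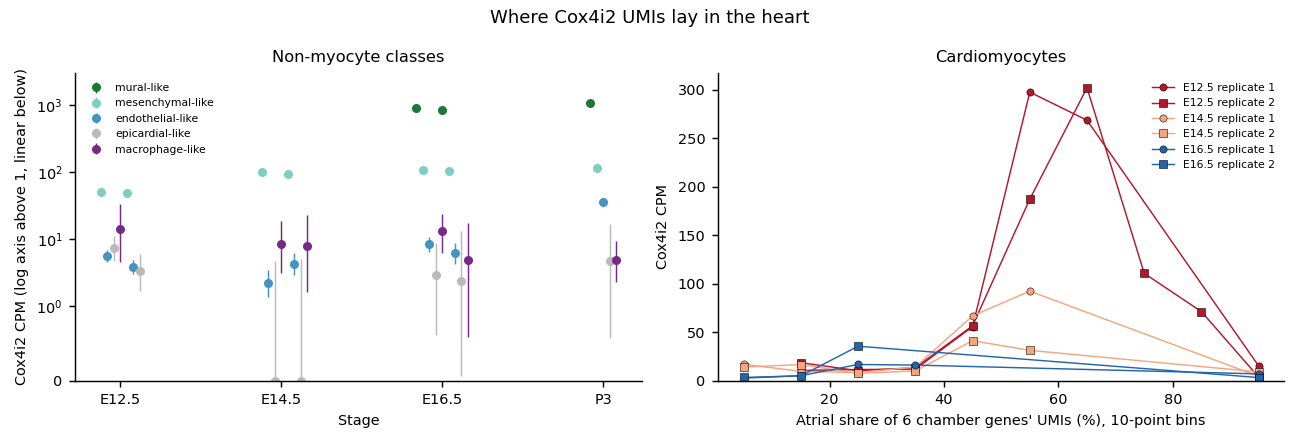
Left, Cox4i2 level (CPM, log axis above 1 and linear below) in the non-myocyte classes of hearts against stage, 1 point a matrix with exact 95% Poisson intervals; right, Cox4i2 level (CPM) of cardiomyocytes in bins of the atrial share of 6 chamber genes, for bins with at least 20 barcodes. Mural-like cells sit at 843 to 1075 CPM, and the E12.5 cardiomyocytes peak at 298 and 302 CPM at intermediate shares.

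Other genes of complex IV were read from lists. The constitutive nuclear subunits, Cox6c and Ndufa4 among them, form a list of 7. All 7 were higher in cardiomyocytes than in other cells at each of the 4 stages, with a median of 0.86 at E10.5 and 2.52 at E16.5 on the log2 scale, where 22.4%, 35.4%, 35.3% and 35.6% of all genes were higher. From E12.5 to E16.5 all 7 rose in cardiomyocytes (median 0.78, largest for Cox6c at 1.04 ± 0.07), as did 26.3% of all genes, and all 7 fell in other cells (median -0.26), as did 23.1%. The 3 mitochondrially encoded subunits, whose UMIs also count towards the 1% floor for keeping a barcode, had a median difference of 1.02 in cardiomyocytes and 1.63 in other cells, and all 3 passed in both (26.3% and 26.4% of all genes higher). Medians of all genes tested were 0 in cardiomyocytes and 0.02 in other cells. The median mitochondrial share of a barcode among other cells was 3.11% and 3.06% at E12.5 and 3.53% and 3.58% at E16.5. Above the study's mitochondrial ceiling for their stage were 245 of 2251 and 317 of 2919 other cells at E12.5. At E16.5 these were 633 of 1986 and 456 of 1637, and their part in the summed rise of the mitochondrially encoded subunits was not tested.

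Assembly factors build the complex without being part of it. Of 24 tested, 10 were higher and 4 lower in cardiomyocytes at E10.5, and 22 were higher and none lower at E16.5 (median 1.02), beside 22.4% of all genes higher and 25.8% lower at E10.5, and 35.6% and 38.5% at E16.5. From E12.5 to E16.5 in cardiomyocytes 16 rose and 2 fell (26.3% and 25.6% of all genes), with Cox20, a chaperone of the COX2 subunit, at 1.40 ± 0.06 (adjusted p = 1.4e-11). Among 16 regulators of mitochondrial genes, 13 were higher and 1 (Rbpj) lower in cardiomyocytes at E16.5, beside the same 35.6% and 38.5%, with the largest values for Esrrg (4.77 ± 0.22) and Ppargc1a (4.35 ± 0.13). Ppara, a nuclear receptor of fatty acid oxidation, rose most of these from E12.5 to E16.5, by 3.49 ± 0.19 (adjusted p = 9.3e-11). Ndufa4l2, among 5 tested isoforms and relatives, rose in other cells by 4.13 ± 0.09 and had fallen in summed cardiomyocytes by 0.36 (adjusted p = 3.0e-15 and 0.0038), in each case the same direction as Cox4i2. The cardiomyocyte fall did not hold in most cells. Those with no Cox4i2 UMI had 1.87 and 2.22 CPM of Ndufa4l2 at E12.5 and 8.59 and 7.40 CPM at E16.5. The 129 and 175 E12.5 cardiomyocytes with at least 3 Cox4i2 UMIs had 166 and 176 CPM.

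Across 20 sums (10 matrices, 2 classes) and 4903 genes with a mean of at least 20 CPM, the closest profile to Cox6a2 by Pearson correlation of log2(CPM + 1) was that of Tnni3, cardiac troponin I (r = 0.997), then Myom1 and Ldb3 (0.993 each). For Cox7a1 the closest were Myo18b (0.992) and Fsd2 (0.990), and for Cox8b Casq2, the sarcoplasmic calcium store protein (0.985), Bcam (0.969) and Mb, myoglobin (0.968). Cox4i2 had Rgs10 (0.947), Glipr2 (0.922) and Tubb6 (0.914). The sums share libraries and depth, and most of the range of the first 3 genes is the gap between cardiomyocytes and other cells.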

How the data were processed

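Single-cell 3′ RNA libraries of mouse embryos and hearts were analysed from UMI counts that the authors deposited as 1 matrix a library, with both P3 libraries in 1 matrix. The submitters' processing notes name Cell Ranger 2.1.1, Seurat 3.1.1 and mm10, and the matrix headers name versions 3.0.0 and 3.1.0. Barcodes with at least 2000 UMIs and 1% mitochondrial UMIs were kept, parted by Tnnt2 and summed per library and class. Doublets were not removed. Sums were tested with edgeR 4.0.16 in R 4.3.3 (quasi-likelihood, TMM, filterByExpr, Benjamini-Hochberg adjustment over all genes, threshold 0.05), with DESeq2 1.42.0 as an alternative. The SE is the fold change over the root of F. Shares were compared by exact sign-flip permutation in Python 3.11.15. Summed depth was 3040119 to 112164086 UMIs in cardiomyocytes. Intervals are exact at 95% and cover counting error only.

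The 8 genes, the lists and the markers were chosen with earlier results of these data known. Named genes were the 8 members, at most 2 called genes of each list in each direction, and the 3 closest profiles of each restricted gene, of which 1 for Cox7a1 is not reported here. A non-myocyte class was the list with the greatest share of markers seen (at least 3), ties stayed apart, and 10% globin made a barcode erythroid. The mural comparison was planned for E14.5 and E16.5 and made at E16.5, since E14.5 had under 10 mural-like cells a library. Cardiomyocytes and other cells, the chamber sets and the non-myocyte classes of a library come from 1 suspension, which pairs them. Replicate numbers of different stages do not pair (correlation -0.003 to 0.057). Alternatives covered scaling, filters, gates, depth, mitochondrial genes, blocks and single libraries (a library left alone in its group was taken to vary like the other groups), and leaving out erythroid-like cells or intermediate cardiomyocytes and the library block for the difference between classes over the stages were added after seeing the data.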

Additional observations from a re-analysis of the deposited data

Results flagged for a closer look

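Over E12.5 to E16.5 the change in cardiomyocytes differed from that in other cells, by a test of the difference itself, for 7 of the 8 genes (edgeR's quasi-likelihood test). On the log2 scale the difference was -4.81 ± 0.16 for Cox4i2 (adjusted p = 1.1e-12), 1.03 ± 0.20 for Cox7a1 (5.8e-04), 0.89 ± 0.10 for Cox7a2 (2.7e-06), 0.86 ± 0.12 for Cox4i1 (2.5e-05), 0.84 ± 0.13 for Cox6a2 (4.7e-05), 0.50 ± 0.09 for Cox6a1 (2.3e-04) and 0.37 ± 0.09 for Cox8a (0.0054). Of all genes tested, 35.3% passed. The Cox6a2 call was lost when other cells were limited to Tnnt2 below 300 CPM (0.19, adjusted p = 0.37) or every cell was thinned to 2000 UMIs (0.32, adjusted p = 0.16).

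The atrial against ventricular difference changed from E12.5 to E16.5, by the same kind of test, for 3 genes. The change was -1.08 ± 0.15 for Cox7a1 (adjusted p = 4.4e-05), -0.99 ± 0.11 for Cox6a2 (4.2e-06) and -0.49 ± 0.13 for Cox4i1 (0.017), beside 11.3% of all genes tested. With the library as a block, since both sets come from 1 suspension, Cox6a1, Cox7a2 and Cox8b passed as well. The Cox4i1 call was lost without E16.5 replicate 1 (-0.50, adjusted p = 0.097) or replicate 2 (-0.53, adjusted p = 0.075).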

How the results depend on the processing

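Of 2248 alternatives for single genes, 2191 stayed on their side of the threshold, 26 passed it newly, 30 lost it and 1 reversed: without cardiomyocytes of intermediate chamber profile, Cox4i2 at E12.5 was -0.33 in cardiomyocytes against other cells (adjusted p = 0.0071). The uncalled atrial against ventricular value of Cox4i2 at E16.5 ran from -0.73 to 0.83. Of 281 alternatives for counts of called genes, 260 were within 1.5 times. Thinning to 2000 UMIs a cell, which leaves fewer counts, gave 3551, 7204, 7488 and 8078 called genes between cardiomyocytes and the rest at the 4 stages from E10.5 on (7996, 11826, 11739 and 12301 unthinned), 1955, 1507, 2465 and 4171 for cardiomyocytes at E12.5 against E10.5, E14.5 against E12.5, E16.5 against E14.5 and E16.5 against E12.5 (6551, 4855, 5616 and 8608), 4205 for other cells (8213) and 2229 for the difference between classes (5852). Leaving out 1 library gave 2758 to 4800 genes for E14.5 against E12.5, 3565 to 6328 for E16.5 against E14.5, 2162 to 4844 and 2673 to 4813 for chambers at E14.5 and E16.5 (4575 and 4465 with all), 718 to 1281 for the change of the chamber difference (1532) and 1029 to 2197 for mural-like cells (2151). The share differences without 1 library ran from -5.00 to -3.46 points for Cox4i2, 38.1 to 41.1 for Cox6a2, 13.6 to 15.9 for Cox7a1 and 5.29 to 8.42 for Cox8b, each with an exact p of 0.0625, the smallest for 5 libraries. With E10.5 added the Cox4i2 difference was -2.58 points (permutation p = 0.15). Both E10.5 libraries had the reverse sign, a higher Cox4i2 share in cardiomyocytes, and the cause of that reversal was not tested. With the library as replicate block, 8004, 12154, 11941 and 12418 genes were called between classes from E10.5 to E16.5, 7333 between chambers, 2214 for the change of the chamber difference and 6718 for the difference between classes from E12.5 to E16.5. Besides the chamber calls and the Cox8b call given above, the library block changed no call of the 8 genes in the comparisons it was run on. With the replicate number as block, 8843 genes were called for E16.5 against E12.5 in cardiomyocytes, but the samples share only a number.

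Without a test, the E8.5 share of Cox6a2 moved to 25.1% thinned and 21.0% as a mean over cells, that of Cox7a1 to 13.0% under mitochondrial ceilings, 12.3% thinned and 12.6% as a mean over cells, and that of Cox8b to 0% thinned. At P3 Cox4i2 moved to 0.0650% (stricter Tnnt2 gate), 0.159% (ceilings), 0.105% (thinned) and 0.126% (mean over cells), Cox6a2 to 78.1%, 81.9% (thinned) and 81.7% without the 5% deepest barcodes, Cox7a1 to 23.3%, 25.2%, 24.4% and 24.8%, and Cox8b to 32.4%, 42.0%, 39.95% and 41.4% (ceilings, thinned, without the deepest, mean over cells). E8.5 and P3 were treated as 1 sample each, so stage and library cannot be told apart in these values.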

Other observations

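Among P3 cells, the erythroid-like class (37 barcodes) had 110 CPM of Cox4i2 and the endothelial-like class (570) 36.4 CPM, against 8.38 and 6.12 CPM for endothelial-like cells of E16.5. The mural marker Rgs5 moved with it, at 366 CPM in the erythroid-like and 119.8 CPM in the endothelial-like cells of P3, against 6.84 and 2.102 CPM in the endothelial-like cells of E16.5, and its part was not tested.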
